A study of Mus musculus with 18 samples.

Results

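The regulators followed here are 9 transcription factors of the monocyte and macrophage lineage, Spi1 (PU.1), Cebpa, Cebpb, Runx1, Maf, Klf2, Klf4, Nr4a1 and Bhlhe40. They were taken by gene symbol from the 21254 genes of the count table, and all 9 passed the filter on low counts that left 15811 genes for testing. The libraries are bulk RNA-seq of 3 populations of myeloid cells sorted from the lung, with 3 libraries per population and genotype and 18 in all. The cells were CD45+ and CD11b+, and were separated into monocyte-derived macrophages (moMs; MHC-II-, Ly6C+), transitional interstitial macrophages (tnsIMs; MHC-II+, Ly6C+) and mature interstitial macrophages (matIMs; MHC-II+, Ly6C-). Every mouse had breathed nebulized Pseudomonas aeruginosa lipopolysaccharide (LPS, 12.5 mg in 5 ml PBS over 15 min) and was killed 24 h later, so there were no untreated cells.

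The mice were 3 to 5 months old, of both sexes and on a C57BL/6 background. Ezr-KOm mice carried floxed ezrin alleles (Ez fl/fl) and Cx3cr1-Cre, which deletes ezrin in cells with an active Cx3cr1 promoter. WT mice carried the same Cre, so Cre itself was shared by both genotypes. Per the study the Cx3cr1 promoter is also weakly active in conventional dendritic cells, eosinophils and NK cells. The study gives the libraries of a group as biological replicates from separate mice. Its figure legends give as many mice per genotype as each group has libraries. The populations of a genotype would then share mice. The labels do not say whether libraries with the same replicate number came from the same mouse, and the main fit left the number out.

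PU.1, the product of Spi1, is an ETS factor that opens the enhancers of many macrophage genes, and RUNX1 acts upstream of it when the lineage is set up. C/EBPα drives granulocyte and monocyte progenitors, while C/EBPβ is induced by inflammatory signals and is needed for Ly6C-low monocytes. MAF restrains self-renewal of macrophages. KLF2 and KLF4 are zinc finger factors linked to quiescence and to monocyte differentiation. NR4A1 is an orphan nuclear receptor that is needed for Ly6C-low monocytes and is induced rapidly by stimulation, and BHLHE40 is a basic helix-loop-helix repressor linked to macrophage proliferation and cytokine control.

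RefSeq promoters of the GRCm38.p6 build were matched by symbol for 6 of the 9 genes, and Spi1, Maf and Bhlhe40 had no entry. The 250 bases before the start site are shown for Nr4a1 and Cebpb and for the 2 Krüppel-like members, Klf2 and Klf4. Nr4a1 and Cebpb were called lower in matIMs than in moMs of both genotypes, and Klf2 in WT. Klf4 was not called there in the main fit. Capitals mark TGACG or its reverse complement CGTCA, the core of the cAMP response element, searched on both strands. The core is contained in the full element TGACGTCA, which none of the 4 stretches held and 1.55% of all promoters in the table did.
Nr4a1, chr15:101266596-101266845, plus strand: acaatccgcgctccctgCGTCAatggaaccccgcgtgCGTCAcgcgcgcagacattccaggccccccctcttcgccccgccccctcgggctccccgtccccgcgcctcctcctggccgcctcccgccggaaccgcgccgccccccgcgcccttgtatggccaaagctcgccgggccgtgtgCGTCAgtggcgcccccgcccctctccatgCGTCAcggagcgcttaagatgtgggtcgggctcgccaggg
Cebpb, chr2:167688665-167688914, plus strand: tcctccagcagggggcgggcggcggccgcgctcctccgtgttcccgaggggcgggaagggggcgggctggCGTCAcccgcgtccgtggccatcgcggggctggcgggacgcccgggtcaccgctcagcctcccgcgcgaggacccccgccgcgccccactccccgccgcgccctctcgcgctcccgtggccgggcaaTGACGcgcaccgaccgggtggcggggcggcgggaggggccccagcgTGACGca
Klf2, chr8:72318812-72319061, plus strand: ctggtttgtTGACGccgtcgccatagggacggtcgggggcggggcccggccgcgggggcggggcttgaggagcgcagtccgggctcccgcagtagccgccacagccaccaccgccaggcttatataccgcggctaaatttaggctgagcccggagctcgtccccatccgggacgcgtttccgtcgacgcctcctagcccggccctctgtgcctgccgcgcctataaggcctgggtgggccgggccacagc
Klf4, chr4:55532476-55532725, minus strand: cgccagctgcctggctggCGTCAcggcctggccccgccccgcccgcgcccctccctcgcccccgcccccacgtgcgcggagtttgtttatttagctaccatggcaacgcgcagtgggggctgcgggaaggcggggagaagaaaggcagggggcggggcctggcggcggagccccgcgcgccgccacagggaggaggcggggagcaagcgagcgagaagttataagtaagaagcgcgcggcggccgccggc
The Nr4a1 stretch held 4 cores, with first bases at -233, -213, -69 and -40 from the start, and 0.137% of the 32851 promoters in the table held as many. The Cebpb stretch held 3, at -180, -53 and -7, and 0.688% of promoters held as many. Klf2 and Klf4 held 1 each, and 17.8% of promoters held at least as many. The same stretches of the Cebpa promoter and of the 2 Runx1 promoters, not shown here, held 0. These are matches of letters, not measured binding. Other motifs were searched in the same promoters and are not reported here, and the shares take no account of that. A link between the cores and the levels was not tested. The share of G and C was 74.4% for Nr4a1, 81.6% for Cebpb, 71.2% for Klf2 and 74.0% for Klf4, against a median of 52.4% over the table.

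Library totals ran from 16512783 to 48460995 counts. Ezrin transcript was lower in Ezr-KOm than in WT libraries of all 3 populations with no overlap, at 160.0 to 282 against 497 to 593 CPM (counts scaled to library size) in moMs, 126 to 234 against 515 to 679 CPM in tnsIMs, and 93.8 to 167 against 611 to 741 CPM in matIMs. By edgeR's quasi-likelihood test the log2 fold changes of Ezr were -1.20, adjusted p = 0.0549 in moMs, which missed the threshold of 0.05, -1.62, adjusted p = 0.00365 in tnsIMs and -2.29, adjusted p = 7.73e-05 in matIMs. WT tnsIM replicate 2 stood apart, with the lowest total and the highest Spi1, Cebpb and Nr4a1 of its group, so results that rest on it are also given without it.

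The sorted populations matched their labels for the sort genes, and the matIM libraries also held transcripts of dendritic cells. In WT libraries H2-Ab1 averaged 1348, 12585 and 15360.5 CPM in the 3 populations in the order moM, tnsIM and matIM, and Ly6c2 averaged 481, 219 and 51.2 CPM. Of 10 dendritic cell markers, 8 rose from moM to matIM in WT, and their summed level was 94.4 to 141 CPM in moMs, 205 to 449.7 CPM in tnsIMs and 3283 to 4574 CPM in matIMs. Ccr7, a chemokine receptor of migrating dendritic cells, stood at 1481 to 2019 CPM in WT matIMs, Fscn1, an actin bundler of mature dendritic cells, at 614 to 1019.5 CPM, and Zbtb46, which marks classical dendritic cells, at 100.2 to 134 CPM. Xcr1, of the cross-presenting subset, was at 3.08 to 4.25 CPM, and no dendritic cell marker was at 0 throughout a group. In Ezr-KOm libraries the sums were 104 to 124, 271 to 401 and 4084 to 4434 CPM. The 10 B cell markers also rose in WT matIMs (482 to 646 CPM against 103 to 177 CPM in moMs, where Cr2 was at 0), and the 10 epithelial markers were highest in tnsIMs (3010.3 to 4637 CPM in WT against 136 to 161 CPM in moMs and 584 to 653 CPM in matIMs). Of 10 alveolar macrophage markers, 8 rose and 1 fell from moM to matIM in WT (median 2.29, background 13.4% higher and 11.4% lower). Their summed level, mostly Chil3 in moMs, was 5293 to 6603 CPM in WT moMs and 545 to 699 CPM in WT matIMs. The gating in the study's methods took the 3 populations from CD11c- cells, which would remove CD11c+ dendritic cells. The sort markers in the labels do not name CD11c. The part of these other cells in the results on matIMs and tnsIMs was not tested. In bulk samples fewer cells of a type and less RNA per cell cannot be told apart.

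**Figure D1:**
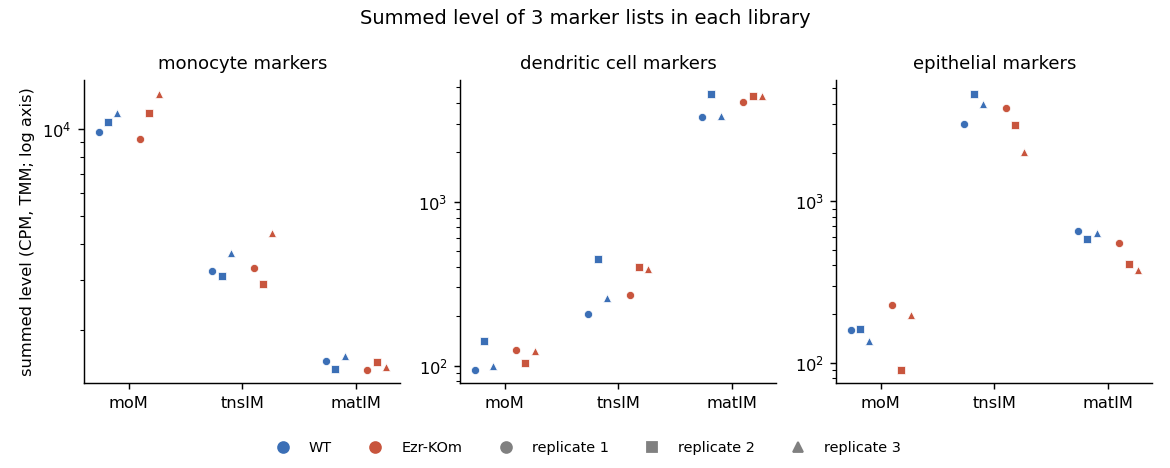
Summed level of the monocyte, dendritic cell and epithelial marker lists (7, 10 and 10 genes) in each library, in CPM on a log axis, by population and genotype. Monocyte markers were lowest in matIMs, dendritic cell markers were highest there (3283 to 4574 CPM in WT), and epithelial markers were highest in tnsIMs.

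Per kilobase of annotated exon, Cebpb had the highest level of the 9 genes and Maf the lowest. The median level over the 18 libraries was 1050.4 CPM per kb for Cebpb, 251 for Bhlhe40, 241 for Nr4a1, 201 for Spi1 and 113 for Klf2. It was 32.4 CPM per kb for Klf4, 14.8 for Cebpa, 8.63 for Runx1 and 2.46 for Maf. The order of Bhlhe40 and Nr4a1 changed with the population. In WT moMs Nr4a1 stood at 289 ± 30.6 CPM per kb (SD, n = 3) and Bhlhe40 at 162 ± 42.2, and in WT matIMs Nr4a1 stood at 169 ± 23.9 and Bhlhe40 at 342 ± 53.7. The exon lengths are those of a later annotation than the counts used. They join the exons of all isoforms of a gene, 10903 bases for Nr4a1 and 1504 for Cebpb, so the order depends on this length. Without it the highest median was that of Nr4a1 (2627 CPM), ahead of Bhlhe40 (1594 CPM) and Cebpb (1580 CPM). Maf was again the lowest (22.8 CPM). All other levels below are in CPM without the length and are compared only within a gene.

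**Figure D2:**
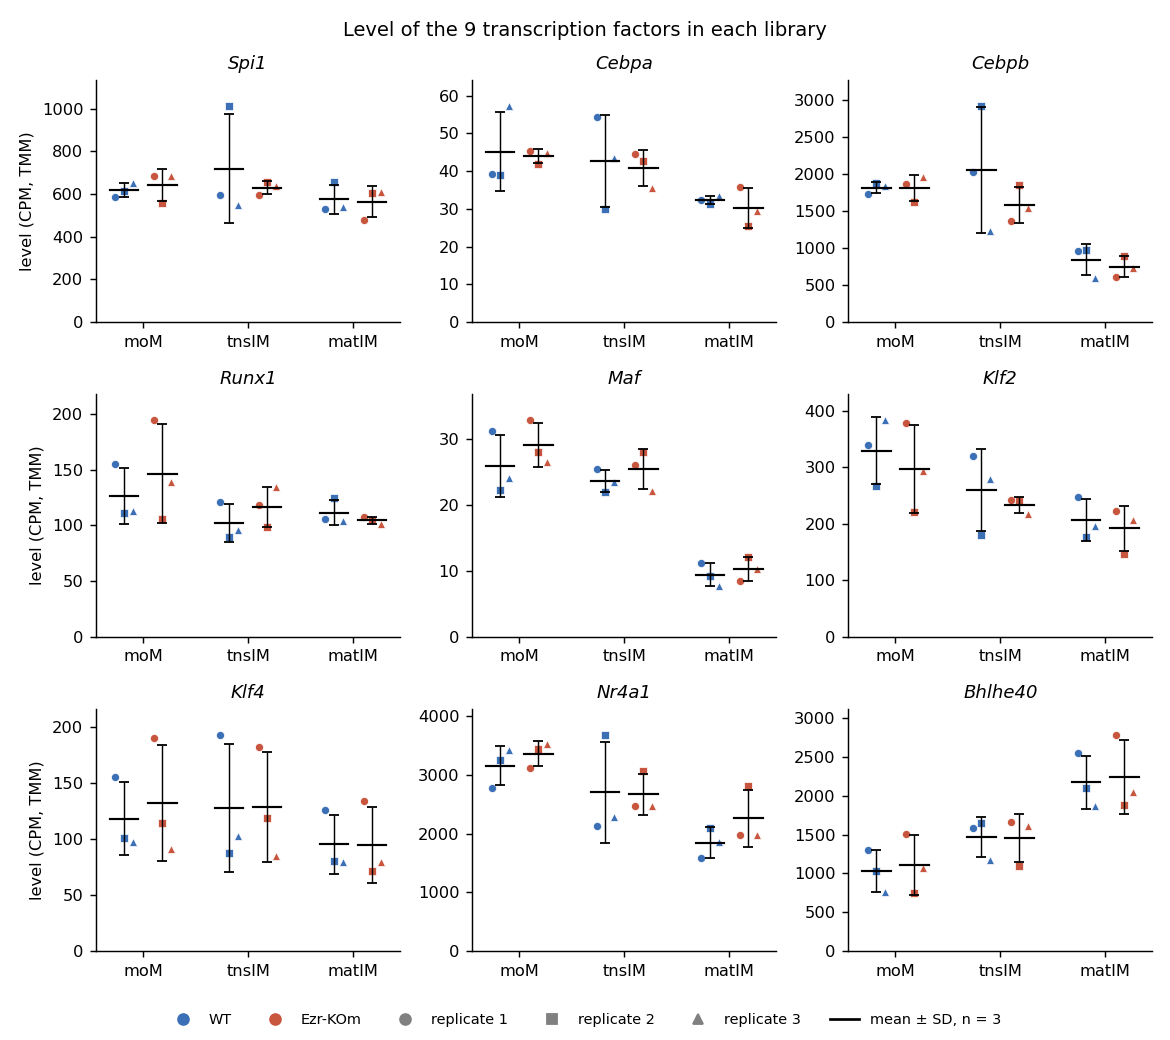
Level of each of the 9 transcription factors in the 18 libraries, in CPM, by population and genotype, with each library as a point and bars at the mean ± SD (n = 3). Maf and Cebpb were lowest in matIMs of both genotypes and Bhlhe40 highest, and Klf4 was highest in replicate 1 of every group.

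Between moMs and matIMs of WT mice 5 of the 9 factors differed, namely Maf, Cebpb, Nr4a1 and Klf2, which fell, and Bhlhe40, which rose. In this comparison 13.4% of all tested genes were called higher and 11.4% lower, so 1 higher of 9 is near the background share and 4 lower of 9 above it. In Ezr-KOm mice 1 factor rose and 3 fell against a background of 12.5% higher and 10.7% lower, and these were Bhlhe40 and, lower, Maf, Cebpb and Nr4a1. The step from tnsIM to matIM held calls of Maf and Cebpb in both genotypes, with 0 members higher and 2 lower (background 8.32% higher and 10.2% lower in WT, 8.37% and 9.85% in Ezr-KOm). Between moMs and tnsIMs edgeR called 0 of the 9 in either genotype, while it called 13% of genes higher and 8.61% lower in WT and 9.23% and 5.04% in Ezr-KOm. In that step 0 members had an unadjusted p under 0.05, which 34.0% of all tested genes had in WT and 26.8% in Ezr-KOm, and DESeq2 also called 0. These comparisons share libraries. Between moMs and matIMs the libraries of 41.5% of all tested genes did not overlap in WT, and of 39.9% in Ezr-KOm. Between tnsIMs and matIMs the shares were 31.5% and 31.2%.

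**Figure D3:**
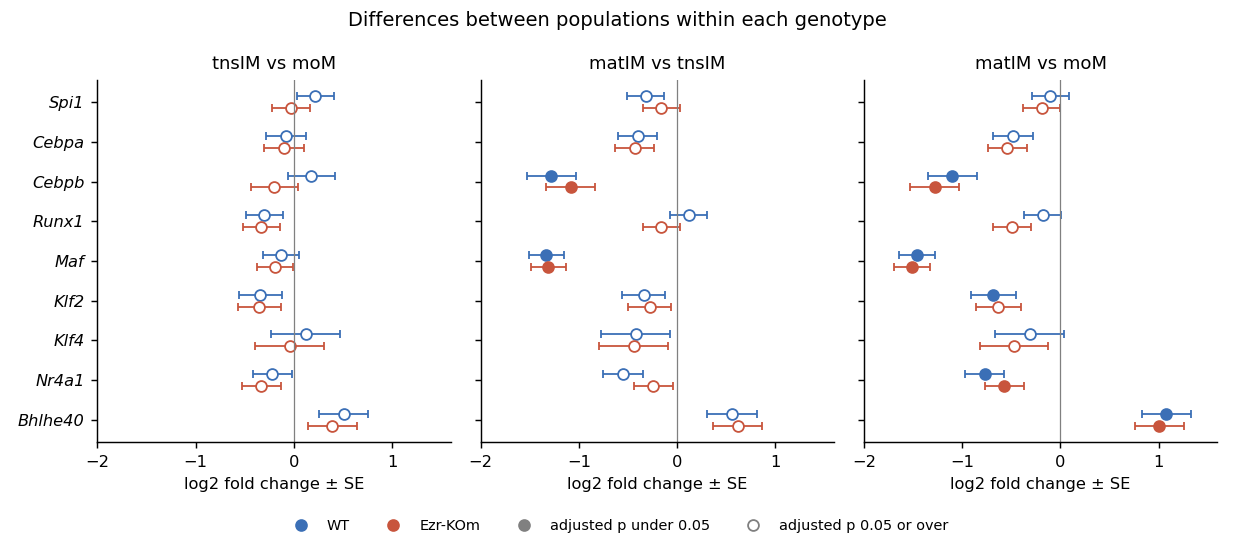
Log2 fold change of each factor between populations within WT and within Ezr-KOm mice, with bars of 1 SE. Maf and Cebpb lie below 0 in both comparisons that include matIMs, and Bhlhe40 lies at 1.08 in WT and 1.01 in Ezr-KOm in matIM against moM.

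Maf was lower in every matIM library. Its level in WT replicates 1, 2 and 3 was 31.2, 22.2 and 24.1 CPM in moMs, 25.4, 21.9 and 23.4 CPM in tnsIMs, and 11.2, 9.23 and 7.71 CPM in matIMs. In Ezr-KOm it was 32.8, 28.0 and 26.4 CPM in moMs, 26.0, 28.0 and 22.1 CPM in tnsIMs, and 8.46, 12.0 and 10.2 CPM in matIMs. All 6 matIM libraries lay below the 12 others, and moM and tnsIM libraries overlapped. The log2 fold change from tnsIM to matIM was -1.33 ± 0.18 (SE) in WT (adjusted p = 3.32e-05) and -1.31 ± 0.18 in Ezr-KOm (adjusted p = 3.78e-05). From moM to matIM it was -1.46 ± 0.18 (adjusted p = 8.57e-06) and -1.51 ± 0.18 (adjusted p = 5.79e-06). Population took up 92.8% of the sum of squares of the log2 level of Maf over the 18 libraries, against a median of 39.2% over all tested genes.

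Cebpb was high in moMs and tnsIMs and lower in matIMs. Its level in WT replicates was 1727, 1872 and 1842 CPM in moMs, 2022, 2921 and 1225 CPM in tnsIMs, and 956, 978 and 598 CPM in matIMs. In Ezr-KOm it was 1868, 1619.6 and 1959.7 CPM in moMs, 1359, 1844 and 1540.0 CPM in tnsIMs, and 613, 898 and 728 CPM in matIMs. The matIM libraries did not overlap with the other libraries of either genotype, and the WT tnsIM libraries spread the most. The log2 fold change from tnsIM to matIM was -1.28 ± 0.25 in WT (adjusted p = 0.000949) and -1.08 ± 0.25 in Ezr-KOm (adjusted p = 0.00381). Without WT tnsIM replicate 2 the WT value was -0.98 (adjusted p = 0.0074). From moM to matIM it was -1.10 ± 0.25 (adjusted p = 0.0025) in WT and -1.28 ± 0.25 (adjusted p = 0.00076) in Ezr-KOm. Cebpb shares 312 exon bases with Peds1, a gene on the opposite strand, and the counting strand is not stated. Peds1 stood at 120 to 227 CPM across the libraries.

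Cebpa, the other C/EBP member, did not pass the test in any comparison in the edgeR fit of all 18 libraries without the replicate number. WT replicates held 39.2, 39.0 and 57.3 CPM in moMs and 32.3, 31.2 and 33.5 CPM in matIMs. Ezr-KOm replicates held 45.2, 41.9 and 44.8 CPM in moMs and 35.9, 25.5 and 29.5 CPM in matIMs. In both genotypes the matIM libraries lay below the moM libraries. The log2 difference was -0.48 ± 0.20 in WT (adjusted p = 0.0825) and -0.54 ± 0.20 in Ezr-KOm (adjusted p = 0.0559). From tnsIM to matIM in WT it was -0.40 ± 0.20 (adjusted p = 0.194), and -0.63 (adjusted p = 0.0312) without WT tnsIM replicate 2. From moM to matIM Cebpa was called by edgeR when Ezr-KOm was fitted alone (-0.54, adjusted p = 0.0280). Of the 18 fits that left out 1 library, 4 called it in Ezr-KOm (adjusted p 0.0324 to 0.0427). In WT 2 of the 18 did (adjusted p = 0.0472 and 0.0490). With the replicate number added to the fit, Cebpa was called in WT (-0.48, adjusted p = 0.0439) and Ezr-KOm (-0.55, adjusted p = 0.0239). That fit called 14.6% of all genes lower in WT and 14.1% in Ezr-KOm.

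Bhlhe40 was the only member called higher in matIMs. WT replicates held 1296, 1033 and 759 CPM in moMs, 1585, 1645 and 1171 CPM in tnsIMs, and 2542, 2097 and 1871 CPM in matIMs. Ezr-KOm replicates held 1509, 744 and 1072 CPM in moMs, 1655, 1102 and 1604 CPM in tnsIMs, and 2779, 1883 and 2044 CPM in matIMs. The matIM libraries did not overlap with either other population of their genotype. The log2 fold change from moM to matIM was 1.08 ± 0.25 in WT (adjusted p = 0.00355) and 1.01 ± 0.25 in Ezr-KOm (adjusted p = 0.00582). The Ezr-KOm call was lost without moM replicate 2 (0.77, adjusted p = 0.051) or matIM replicate 1 (0.79, adjusted p = 0.051). The single steps did not pass the test in WT, at 0.51 ± 0.25 for tnsIM against moM (adjusted p = 0.157) and 0.56 ± 0.25 for matIM against tnsIM (adjusted p = 0.14).

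In these single steps libraries with the same replicate number deviated together, so the replicate number was also fitted as a block. With it, Bhlhe40 rose from moM to tnsIM in WT by 0.54 (adjusted p = 0.0352, background 16.1% higher). From tnsIM to matIM it rose by 0.55 in WT (adjusted p = 0.0361, background 10.8% higher) and by 0.61 in Ezr-KOm (adjusted p = 0.0214, background 11.0% higher). In that step the blocked fit also called Klf4 lower, at -0.38 in WT (adjusted p = 0.0453) and -0.43 in Ezr-KOm (adjusted p = 0.0219), and Nr4a1 lower in WT, at -0.52 (adjusted p = 0.00833), where 12.4% of genes were called lower in either genotype.

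Nr4a1 was lower in matIMs than in moMs of both genotypes. WT replicates held 2780.4, 3249.9 and 3427 CPM in moMs, 2136, 3677 and 2283 CPM in tnsIMs, and 1578, 2099.6 and 1863 CPM in matIMs. Ezr-KOm replicates held 3120.3, 3433 and 3525 CPM in moMs, 2473, 3071 and 2465 CPM in tnsIMs, and 1978, 2815 and 1984 CPM in matIMs. In both genotypes the matIM libraries lay below the moM libraries, and in WT also below the tnsIM libraries by a narrow gap. The log2 fold change from moM to matIM was -0.77 ± 0.20 in WT (adjusted p = 0.00675) and -0.57 ± 0.20 in Ezr-KOm (adjusted p = 0.0412). The Ezr-KOm call was lost when any one of 5 libraries was left out, namely the 3 Ezr-KOm moM libraries and Ezr-KOm matIM replicates 1 and 3 (adjusted p 0.0622 to 0.137), and with library totals as the only scaling (adjusted p = 0.103). From tnsIM to matIM the log2 difference was -0.55 ± 0.20 in WT (adjusted p = 0.0611), and -0.29 without WT tnsIM replicate 2. It was called without WT tnsIM replicate 1 (-0.71, adjusted p = 0.0268) or replicate 3 (-0.70, adjusted p = 0.0265), by DESeq2 (adjusted p = 0.0262) and with upper-quartile scaling (adjusted p = 0.0362). Nr4a1 is itself an immediate early gene. Of 19 other immediate early and dissociation-responsive genes 1 rose and 4 fell from moM to matIM in Ezr-KOm. In WT 0 rose and 5 fell, and the summed level of the list was 36621 to 39627 CPM in moMs and 27004 to 29796 CPM in matIMs. Those with the smallest p were Fos, a subunit of AP-1 (-0.77, adjusted p = 0.000243), Ier3 (-1.05, adjusted p = 0.000544), Dusp1, a phosphatase of MAP kinases (-0.63, adjusted p = 0.0129), and Socs3, a feedback inhibitor of cytokine signals (-0.58, adjusted p = 0.03). The part of that difference in the fall of Nr4a1 was not tested.

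Klf2 fell from moM to matIM in WT, with a log2 fold change of -0.68 ± 0.23 (adjusted p = 0.0347). Its WT levels were 339, 267 and 384 CPM in moMs, 321, 180.1 and 280.3 CPM in tnsIMs, and 248, 176 and 196 CPM in matIMs. In Ezr-KOm they were 378, 221 and 293 CPM in moMs, 242, 242 and 217 CPM in tnsIMs, and 222, 147 and 206 CPM in matIMs. The WT moM and matIM libraries did not overlap, the Ezr-KOm ones did by 1 library, and the Ezr-KOm difference of -0.63 ± 0.23 narrowly missed the threshold. The Ezr-KOm difference was called by DESeq2 (adjusted p = 0.0392), with robust empirical Bayes (adjusted p = 0.0471) and when Ezr-KOm was fitted alone (adjusted p = 0.0438). It was also called with the replicate block (-0.62, adjusted p = 0.00364). The WT call was lost with upper-quartile scaling (adjusted p = 0.0633), with library totals only (adjusted p = 0.0704), and without any one of WT moM replicates 1 and 3 and WT matIM replicates 2 and 3 (adjusted p 0.0727 to 0.132).

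Klf4 differed more between replicate numbers than between populations. WT replicates 1, 2 and 3 held 156, 102 and 97.7 CPM in moMs, 193, 88.1 and 103 CPM in tnsIMs, and 126, 80.8 and 79.8 CPM in matIMs. Ezr-KOm replicates held 191, 115 and 91.5 CPM in moMs, 183, 119 and 85.5 CPM in tnsIMs, and 134, 71.8 and 79.8 CPM in matIMs. Replicate 1 was highest in all 6 groups, by 1.54 to 1.88 times over the next library. Of all tested genes 451 (2.85%) were likewise highest in replicate 1 of every group. Replicate number took up 75.1% of the sum of squares of Klf4, against a median of 11.9% over all tested genes, and population took up 17.1%. The log2 difference from moM to matIM was -0.31 ± 0.35 in WT (adjusted p = 0.575) and -0.47 ± 0.35 in Ezr-KOm (adjusted p = 0.381), both from the fit without the replicate number. With the replicate block, Klf4 was called lower in this comparison in Ezr-KOm (-0.46, adjusted p = 0.0122) and not in WT. Klf6, a relative of Klf4, was also highest in replicate 1 of every group, at 2092 to 2693 CPM against 1058 to 1701 CPM in replicates 2 and 3. The summed immediate early and dissociation-responsive list was highest in replicate 1 in 4 of the 6 groups, and its part in Klf4 was not tested.

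Spi1 and Runx1 did not pass the test in any comparison of populations in the edgeR fit of all 18 libraries without the replicate number. Spi1 lay between 480.1 and 687 CPM in 17 of the 18 libraries, and at 1014 CPM in WT tnsIM replicate 2. The log2 difference of Spi1 between tnsIM and moM was 0.22 ± 0.19 in WT (adjusted p = 0.442) and -0.08 without that library. Between matIM and moM it was -0.10 ± 0.19 in WT (adjusted p = 0.74) and -0.19 ± 0.19 in Ezr-KOm (adjusted p = 0.546). Runx1 lay between 89.3 and 194 CPM, and its differences between matIM and moM were -0.18 ± 0.19 in WT (adjusted p = 0.558) and -0.49 ± 0.19 in Ezr-KOm (adjusted p = 0.081). Without Ezr-KOm moM replicate 2 the Ezr-KOm difference was called (-0.70, adjusted p = 0.0147), the only fit with a library left out that called it. The replicate block also called the Ezr-KOm difference of Runx1 (-0.46, adjusted p = 0.0424). A p over the threshold does not show that the levels were alike.

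Loss of ezrin was compared with WT within each population, and none of the 9 factors passed the test. edgeR called 0 members in each population, DESeq2 called 0, and 0 had an unadjusted p under 0.05, which 3.74%, 3.24% and 3.84% of all tested genes had in moMs, tnsIMs and matIMs. With such shares 0 of 9 is near the background. Among all genes 0.171% were called in moMs, 0.164% in tnsIMs and 0.152% in matIMs. By the rule of the study's methods (unadjusted p under 0.05 and an absolute log2 fold change over 0.75) the shares were 2.51%, 1.83% and 2.40%, with 0 members. The groups of every member overlapped, while groups did not overlap for 8.52% (moM), 5.81% (tnsIM) and 10.1% (matIM) of the tested genes. The log2 differences of Ezr-KOm against WT ran from -0.15 (Klf2) to 0.22 (Runx1) in moMs, from -0.38 (Cebpb) to 0.19 (Runx1) in tnsIMs and from -0.18 (Cebpb) to 0.29 (Nr4a1) in matIMs.

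The values farthest from 0 were Cebpb in tnsIMs, at -0.38 ± 0.24 (unadjusted p = 0.138 by edgeR), and Nr4a1 in matIMs, at 0.29 ± 0.20 (unadjusted p = 0.155). For Cebpb the difference was -0.05 without WT tnsIM replicate 2. For Nr4a1 in matIMs the Ezr-KOm library was above the WT library of the same number by 0.33, 0.42 and 0.09 (log2). Nr4a1 and Maf in moMs were likewise higher in Ezr-KOm for all 3 numbers. The labels do not pair these libraries, and the share of all genes with such signs was not taken. The genotype effect was also tested for a difference between populations. There 0% of all genes and 0 members were called for any pair of populations by edgeR, DESeq2 called 0 members, and 0 members had an unadjusted p under 0.05, the smallest being 0.278.

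**Figure D4:**
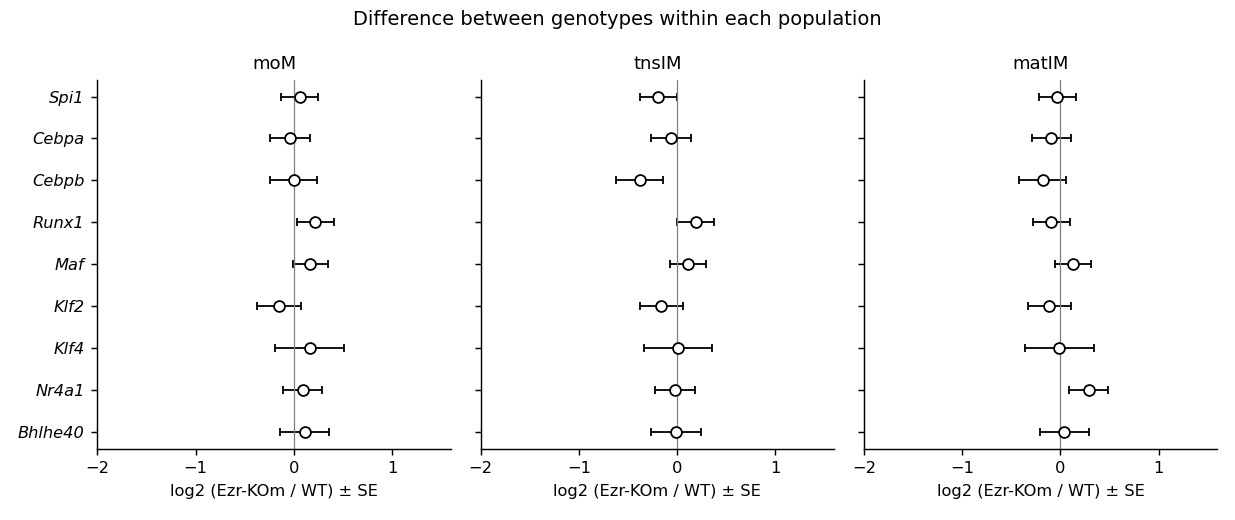
Log2 fold change of Ezr-KOm over WT for each factor within each population, with bars of 1 SE. All values lie between -0.38 and 0.29, and none passed the test.

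Relatives of the members changed in both directions. Of 37 tested genes from the same families, 7 rose and 7 fell from moM to matIM in WT, and 5 rose and 8 fell in Ezr-KOm (median log2 fold change 0.08 and 0.06, against 0.01 over all tested genes). Of all tested genes 13.4% were called higher and 11.4% lower in WT, and 12.5% and 10.7% in Ezr-KOm. The same shares are the background for every list count of this comparison, also those below.

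Cebpd, an acute phase C/EBP factor, fell in the same step as Cebpb, with a log2 fold change from tnsIM to matIM of -1.05 ± 0.19 in WT (adjusted p = 0.00043) and -0.93 ± 0.18 in Ezr-KOm (adjusted p = 0.00127). Klf3, a repressor of the Krüppel-like family, had -1.62 ± 0.25 from moM to matIM in WT (adjusted p = 6.99e-05), and Fli1, an ETS factor, -0.65 ± 0.12 (adjusted p = 0.000375). Nr4a3 went the other way from Nr4a1. WT replicates of Nr4a3 held 42.0, 18.7 and 12.3 CPM in moMs and 115, 81.0 and 45.0 CPM in matIMs, a log2 fold change of 1.73 ± 0.45 (adjusted p = 0.00797), and in Ezr-KOm it was 1.63 ± 0.45 (adjusted p = 0.0119). Nr4a2 did not pass the test in WT, at -0.49 ± 0.44 (adjusted p = 0.465).

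**Figure D5:**
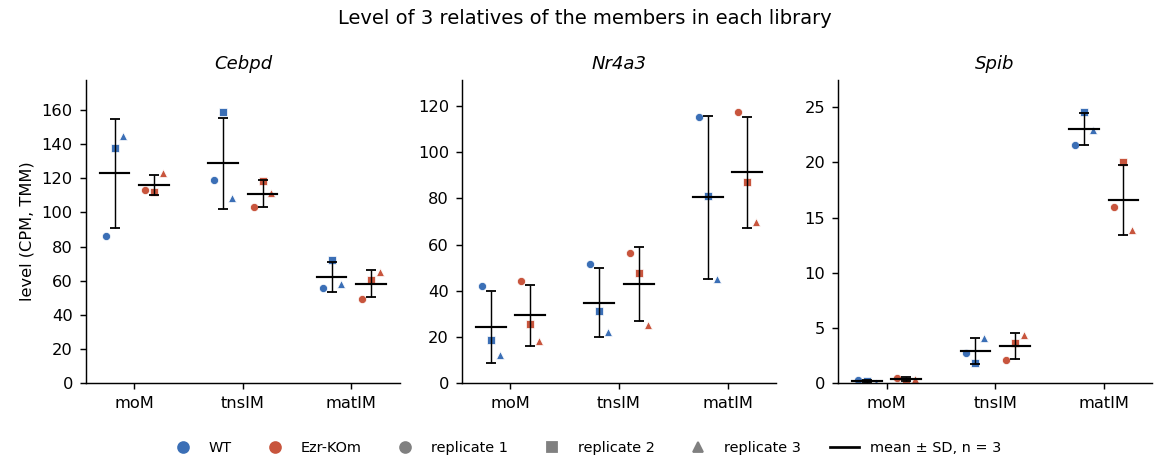
Level of 3 relatives of the members, Cebpd, Nr4a3 and Spib, in the 18 libraries, in CPM, by population and genotype, with each library as a point and bars at the mean ± SD (n = 3). Cebpd was lowest in matIMs, and Nr4a3 and Spib highest.

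Spib, an ETS factor of B cells and plasmacytoid dendritic cells, stood at 0.0787 to 0.285 CPM in WT moMs, 21.5 to 24.5 CPM in WT matIMs and 13.8 to 20.1 CPM in Ezr-KOm matIMs. Its rise went with that of the B cell and dendritic cell markers in the same libraries, whose part was not tested. Spic, an ETS factor of iron-recycling macrophages, stood at 7.80 to 8.98 CPM in WT and 12.1 to 17.0 CPM in Ezr-KOm moMs. It was higher in Ezr-KOm without overlap in all 3 populations, but did not pass the test (0.87 ± 0.19, adjusted p = 0.094 in moMs). Of all tested genes 4.45% (moM), 3.05% (tnsIM) and 5.03% (matIM) were higher in Ezr-KOm without overlap. Runx3 rose from moM to matIM in WT, at 0.63 ± 0.16 (adjusted p = 0.00791), while in Ezr-KOm the difference was 0.26 ± 0.16 (adjusted p = 0.292). Runx2 and Bhlhe41 did not pass the test in WT, at 0.30 ± 0.26 (adjusted p = 0.441) and 1.40 ± 0.51 (adjusted p = 0.0516).

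Among 19 other myeloid regulators 4 rose and 7 fell from moM to matIM in WT (median -0.08), and 7 were called in all without WT matIM replicate 2. Irf4, a regulator of dendritic cells, stood at 14.8 to 17.7 CPM in moMs and 106 to 127 CPM in matIMs (2.85, adjusted p = 2.20e-06), and Batf3, a factor of cross-presenting dendritic cells, also rose (1.27, adjusted p = 0.0006). Tfec, a macrophage MiT factor, stood at 30.0 to 31.7 CPM in moMs and 7.71 to 11.0 CPM in matIMs (-1.67, adjusted p = 1.53e-06), and Zeb2, which keeps the identity of tissue macrophages, also fell (-1.17, adjusted p = 0.000146).

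Genes known as targets of PU.1 and of the C/EBP factors were lower in matIMs. Of 15 PU.1 targets, 0 rose and 10 fell from moM to matIM in WT (median -0.80), while Spi1 itself did not pass the test. Lyz2, the lysozyme of myeloid cells, stood at 20846 to 26470.4 CPM in moMs and 5832 to 7025 CPM in matIMs (-1.83, adjusted p = 1.24e-07), and Csf1r, the receptor for the macrophage growth factor, at 2199.6 to 2852 and 1362 to 1627 CPM (-0.80, adjusted p = 8.68e-05). Cd14, the LPS co-receptor (-1.33, adjusted p = 4.18e-05), and Csf3r, the receptor of G-CSF (-1.59, adjusted p = 0.000101), also fell. Of 12 C/EBP targets, 1 rose and 7 fell (median -1.80). They included Chil3, a chitinase-like protein (-4.13, adjusted p = 2.64e-08), Arg1, or arginase (-2.71, adjusted p = 3.13e-05), Il6, a cytokine (-1.54, adjusted p = 3.46e-05), and Saa3, an acute phase protein (-2.06, adjusted p = 4.61e-05), and the 1 that rose was Lcn2 (0.77, adjusted p = 0.0292). In Ezr-KOm 0 rose and 8 fell of the C/EBP targets, and 0 rose and 11 fell of the PU.1 targets. The monocyte markers fell with them, with 7 of 7 lower and a summed level of 9809.8 to 11394 CPM in WT moMs against 1468 to 1620.3 CPM in matIMs, and their part was not tested. Chil3 is in both the C/EBP target and the monocyte marker list, and it alone stood at 5178 to 6496 CPM in WT moMs.

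Of 12 MAF targets, 5 rose and 4 fell from moM to matIM in WT (median 0.81), while Maf fell. C1qa, of the first complement component, stood at 79.8 to 106 CPM in moMs and 235 to 381 CPM in matIMs (1.74, adjusted p = 7.67e-05), and Timd4, a receptor for apoptotic cells, at 0.0414 to 0.399 and 16.6 to 20.9 CPM (adjusted p = 2.39e-09). Selenop, a selenium carrier (-1.91, adjusted p = 4.17e-07), and F13a1, a coagulation factor subunit (-4.24, adjusted p = 3.52e-06), fell. Of 6 KLF2 and KLF4 targets, 0 rose and 3 fell (median -0.42), among them Thbd, or thrombomodulin (-2.30, adjusted p = 2.19e-05), and Itgb7, an integrin chain (-0.64, adjusted p = 0.0206). Klf2, Klf4 and Thbd are also known as endothelial genes, and of 10 endothelial markers 0 rose and 7 fell in the same comparison (median -1.32), with summed levels of 147 to 188 CPM in moMs, 444 to 717 CPM in tnsIMs and 99.6 to 132 CPM in matIMs. No endothelial marker was at 0 throughout a group, and their part was not tested. Of 9 genes of Ly6C-low monocytes, 2 rose and 5 fell (median -1.06), among them Treml4, a marker of that subset (-1.18, adjusted p = 0.000497), and Itgal, an integrin chain (-1.23, adjusted p = 0.000613). In Ezr-KOm against WT edgeR called 0 genes of any of these lists in any population.

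Over the 18 libraries, the genes whose log2 level was most like that of a member, by Pearson's r, were Vdr (r = 0.964) and Cd86 (r = 0.936) for Bhlhe40. They were Sh2b2 (r = 0.953) and Msr1 (r = 0.952) for Maf, and Rab5if (r = 0.947) and Cd14 (r = 0.946) for Cebpb. For Klf4 they were Il10 (r = 0.938), an anti-inflammatory cytokine, and Ifrd1 (r = 0.912). The other members had Fech (r = 0.916) and Por (r = 0.899) for Nr4a1, Lman2 (r = 0.891) and Ppp4c (r = 0.884) for Spi1, Hadh (r = 0.889) and Pgd (r = 0.850) for Cebpa, Rab18 (r = 0.867) and Srgn (r = 0.865) for Runx1, and Gm42515 (r = 0.865) and Trib1 (r = 0.864) for Klf2. These are descriptions, since the libraries share populations, replicate numbers and depth.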

How the data were processed

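Bulk RNA-seq (SMART-Seq v4 and Nextera XT libraries) was deposited by the authors as one table of raw read counts per gene. Per the study's methods, reads were checked with FastQC and aligned with STAR 2.7.9a to GRCm39, and the strand column used is not given in the sources used here. Totals were 16512783 to 48460995 counts per library. All 18 libraries entered a single edgeR 4.0.16 model (R 4.3.3) of 6 groups with TMM scaling, filterByExpr (smallest count 10) and two-sided quasi-likelihood F-tests, with Benjamini-Hochberg adjustment over 15811 of 21254 genes and a threshold of 0.05. CPM used TMM library sizes, and log2 CPM a prior count of 2. The script was tested on simulated data.

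Groups came from the labels. The genes and lists were chosen with earlier results of these data known. Named list genes were the 4 called in WT matIM against moM with the smallest p, plus family members fixed by name, and Lcn2 was named after its value was seen. Some genes that this rule takes are not reported here. Same-numbered libraries deviated together, with correlations of deviations from the group means of 0.102 to 0.397 within the comparisons other than matIM against moM, where the lowest was 0.0905. The replicate block is therefore given beside the other comparisons where it changed a call. For matIM against moM it was kept as an alternative, and the calls it changed are named for each gene. The pairing by number comes from these data, since the labels do not state it. Alternatives were DESeq2 1.42.0, other scalings and filters, the block, and leaving out each library.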

Additional observations from a re-analysis of the deposited data

How the results depend on the processing

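The replicate block moved the count of members called from 0 to 1 in WT tnsIM against moM, from 2 to 5 in WT matIM against tnsIM, from 2 to 4 in Ezr-KOm matIM against tnsIM, from 5 to 6 in WT matIM against moM and from 4 to 8 in Ezr-KOm matIM against moM, with the same counts when fitted within each genotype, which also gave 1 in place of 0 in Ezr-KOm tnsIM against moM. In matIM against moM, where not every same-number correlation was above 0.1, the replicate block added Cebpa in WT (-0.48, adjusted p = 0.0439), and in Ezr-KOm Cebpa (-0.55, adjusted p = 0.0239), Klf2 (-0.62, adjusted p = 0.00364), Klf4 (-0.46, adjusted p = 0.0122) and Runx1 (-0.46, adjusted p = 0.0424), with 16.3% of all genes called higher and 14.6% lower in WT and 15.1% and 14.1% in Ezr-KOm. Among the differences between populations, 445 of the values under other settings kept direction and call, and no called value reversed. Signs reversed only in values that did not pass the test. In WT tnsIM against moM, Cebpa was 0.01 with upper-quartile scaling. In Ezr-KOm tnsIM against moM, Spi1 and Klf4 were 0.06 with upper-quartile scaling and with library totals, and 0.01 with a minimum of 10 counts. For Ezr-KOm against WT, Nr4a1 in tnsIMs was 0.01 with library totals and with the replicate block, and Klf4 in matIMs was 0.01 with upper-quartile scaling, with library totals and when fitted alone. Leaving out 1 library at a time gave log2 ranges that crossed 0 for tnsIM against moM in WT (-0.08 to 0.40 for Spi1, -0.32 to 0.14 for Cebpa, -0.12 to 0.47 for Cebpb, -0.22 to 0.02 for Maf and -0.32 to 0.37 for Klf4) and in Ezr-KOm (-0.11 to 0.06 for Spi1, -0.18 to 0.03 for Cebpa and -0.38 to 0.38 for Klf4). For Ezr-KOm against WT in moMs they were -0.01 to 0.15 for Spi1, -0.14 to 0.17 for Cebpa, -0.06 to 0.08 for Cebpb, -0.38 to 0.03 for Klf2, -0.22 to 0.40 for Klf4, -0.06 to 0.41 for Runx1 and -0.20 to 0.33 for Bhlhe40. In tnsIMs they were -0.36 to 0.14 for Spi1, -0.26 to 0.19 for Cebpa, -0.36 to 0.06 for Klf2, -0.35 to 0.48 for Klf4, -0.14 to 0.27 for Nr4a1 and -0.16 to 0.15 for Bhlhe40. In matIMs they were -0.08 to 0.09 for Spi1, -0.23 to 0.02 for Cebpa, -0.01 to 0.29 for Maf, -0.23 to 0.07 for Klf2, -0.34 to 0.27 for Klf4 and -0.15 to 0.19 for Bhlhe40. Library totals moved the median of all genes to 0.11 in WT and 0.13 in Ezr-KOm matIM against moM, and the 67 and 63 list genes called there kept their sign under the 3 other scalings, with 63 of 67 and 56 of 63 still called under upper-quartile scaling and 62 of 67 and 56 of 63 with library totals. The cause of these shifts was not tested.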
